A study of Mus musculus with 4 samples.

Results

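Transcript levels of the nuclear genes that encode subunits of the oxidative phosphorylation machinery were described in mouse E14 embryonic stem (ES) cells, a cultured pluripotent line, in which Mtf2 was targeted by RNA interference (RNAi). Mtf2, also called Pcl2, is a partner of the Polycomb repressive complex PRC2. The genes were taken by name from the platform annotation: every array feature whose gene symbol marks a subunit of complex I (Nduf genes), complex II (Sdha to Sdhd), complex III (Uqcr genes), complex IV (Cox4 to Cox8 genes) or complex V (Atp5 genes), with pseudogenes left out. This gave 113 features of 45220 and 82 genes of the 19087 named on the array: 35 of complex I, 4 of complex II, 8 of complex III, 18 of complex IV and 17 of complex V. The choice used names alone and no measured value.

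The study had 4 single-colour arrays, and each carried cells with 1 plasmid. Control cells carried either the pSuper vector alone, called the empty vector here (control replicate 1), or pSuper with a luciferase hairpin (control replicate 2). The Mtf2 RNAi arm held the plasmids Mtf2 RNAi 1 and Mtf2 RNAi 3, called hairpin 1 and hairpin 3 here. All 4 cultures were E14 cells transfected with lipofectamine and kept for 2 days in puromycin (1 mg/ml as the labels state it), so that the controls shared the transfection and the selection. No plasmid was repeated, so the spread within an arm held the difference between its plasmids, and p-values measured only the spread between these arrays. Levels are given in scaled intensity units, in which 75% of all features on each array lay at or below 22.98. The brightness of different features depends on their probes, so each feature was compared only with itself across the arrays.

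Oxidative phosphorylation makes most of the ATP of respiring cells. Complexes I and II pass electrons from NADH and succinate to coenzyme Q, complex III passes them on to cytochrome c, and complex IV reduces oxygen. Complexes I, III and IV pump protons across the inner mitochondrial membrane, and complex V, the ATP synthase, uses the returning protons to make ATP. Most subunits are encoded in the nucleus and imported, while a small set is encoded by mitochondrial DNA, so that assembly needs both genomes. Pluripotent ES cells express this machinery but draw much of their ATP from glycolysis. The nuclear subunit genes are known for promoters with binding sites for NRF1, for the ETS factor GABP (also called NRF2), for YY1 and for the estrogen-related receptors (ERR).

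Promoter windows were read from RefSeq on the GRCm38.p6 build, 300 bases each, from 250 bases before to 50 after the annotated start. Of the 82 genes, 68 matched by symbol, with 73 windows. The NRF1 motif was written GCGCANGCG, the ETS motif CCGGAAG, the YY1 motif ATGGCGGC and the ERR motif TCAAGGTCA, each searched on both strands. Matches of different motifs can share end letters, as NRF1 and ETS can, and 2 matches of the nearly palindromic NRF1 motif can overlap. A gene was counted once for each motif. The NRF1 motif was present for 20 of 68 genes (29.4%), against 7.03% of 27025 genes with a window. The ETS motif was present for 17 (25%, against 9.93%), the YY1 motif for 6 (8.82%, against 2.6%) and the ERR motif for 2 (2.94%, against 0.466%). Both the NRF1 and the ETS motif were found for 6 genes and at least 1 of them for 31. For base composition, the highest value over the windows of a gene was taken. The median over the genes was 19 CpG dinucleotides, against 8 for all genes, and a GC content of 57.8%, against 53.3%. A match is a description of these letters and does not show that a factor binds there.

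Below are the 200 bases before the start of 5 genes, 5′ to 3′ on the strand of the gene, with the NRF1 and ETS matches in capitals. Sdhd, Cox6a1 and Atp5h show the pairing of NRF1 and ETS motifs in genes of 3 complexes. Ndufb8 and Cox8b hold none of the 4 motifs here and are shown for contrast: Ndufb8 had the smallest p of all members, and Cox8b is an isoform of heart and muscle.
Sdhd (chr9:50603850-50604049, minus strand): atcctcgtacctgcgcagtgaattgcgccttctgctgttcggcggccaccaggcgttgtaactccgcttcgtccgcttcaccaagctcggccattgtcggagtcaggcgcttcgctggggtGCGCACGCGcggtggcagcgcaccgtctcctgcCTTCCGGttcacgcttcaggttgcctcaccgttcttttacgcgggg
Cox6a1 (chr5:115348959-115349158, minus strand): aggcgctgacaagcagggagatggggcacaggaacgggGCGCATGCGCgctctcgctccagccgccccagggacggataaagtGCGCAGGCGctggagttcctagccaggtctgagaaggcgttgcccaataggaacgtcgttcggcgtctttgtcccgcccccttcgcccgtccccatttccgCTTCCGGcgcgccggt
Atp5h (chr11:115419920-115420119, minus strand): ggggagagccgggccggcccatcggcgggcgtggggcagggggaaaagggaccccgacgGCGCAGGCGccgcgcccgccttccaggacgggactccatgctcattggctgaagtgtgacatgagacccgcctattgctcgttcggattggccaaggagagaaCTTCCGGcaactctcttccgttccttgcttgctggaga
Ndufb8 (chr19:44555443-44555642, minus strand): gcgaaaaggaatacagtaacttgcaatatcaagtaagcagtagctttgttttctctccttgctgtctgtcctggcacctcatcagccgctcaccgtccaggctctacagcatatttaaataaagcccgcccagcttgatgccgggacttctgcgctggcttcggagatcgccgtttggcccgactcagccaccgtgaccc
Cox8b (chr7:140900447-140900646, minus strand): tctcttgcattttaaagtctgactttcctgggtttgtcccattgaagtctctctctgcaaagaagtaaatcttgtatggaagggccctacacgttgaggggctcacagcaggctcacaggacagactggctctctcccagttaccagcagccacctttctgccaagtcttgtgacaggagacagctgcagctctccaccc
The 300-base windows held 29 CpG dinucleotides for Sdhd, 32 for Cox6a1, 32 for Atp5h, 19 for Ndufb8 and 2 for Cox8b.

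The arrays as a whole set limits on every value below. Over the 35102 features tested, log2 levels correlated at r of 0.976 to 0.979 between the arrays other than the empty vector, and at 0.945 to 0.949 with it. The empty-vector array had 1681 positions at which the surrounding features were displaced by more than 0.5 log2 units, against 8, 18 and 23 on the luciferase, hairpin 1 and hairpin 3 arrays. These positions are called defective here. Of 4 Mtf2 features, 3 were lower in the Mtf2 RNAi arm (by 0.78 to 1.08 log2 units) and 1 was not (0.19), and none was called (limma adjusted p of 0.868 for the former and 0.954 for the latter). The latter feature read 174.8 units with the empty vector, 737 with luciferase RNAi, 501 with hairpin 1 and 335 with hairpin 3. Both its hairpin values lay below the luciferase value and above the empty-vector value. All 8 ES cell markers read above 10 units on every array, with sums of 9213 to 11678 units. Their differences ran from -0.29 (Esrrb, SE 0.24) to 1.02 (Klf4, SE 0.40). Fewer than 10 units on every array were read for 6 of 9 fibroblast markers, 4 of 6 muscle markers and 3 of 5 endoderm markers. The sums over all markers of these lists were 765 to 1015, 35.7 to 65.9 and 32.0 to 38.2 units. Most of the fibroblast sum came from Vim (558 to 789 units) and Acta2 (150 to 166), and Thy1 read 27.9 to 41.4. Fewer cells of a type and less RNA per cell cannot be told apart in such cultures.

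The subunit genes were nearly evenly divided between higher and lower values. Over the 82 genes, each read from its brightest feature, 45 were higher and 37 lower in the Mtf2 RNAi arm. The median difference was 0.064 log2 units, against -0.0096 over all features and 0.012 over those above 22.98 units. The median standard error (SE) of a gene's difference was 0.30. Of 82 genes, 60 (73.2%) differed by less than 0.5 log2 units, against 76.8% of all features and 79.9% of those above 22.98 units. Of 113 member features, 3 lay at the floor of 1 unit on all arrays and were left out. None of the 110 tested was called by limma after Benjamini-Hochberg adjustment over all 35102 features (smallest adjusted p = 0.868). Over all features 0% (0 features) were called, and 1467 features (4.18%) had an unadjusted p under 0.05. Among the members 7 features had one, 5 of them higher and 2 lower.

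Features were also counted by whether the arms overlapped. For 22 of the 110 member features both Mtf2 RNAi arrays lay above both control arrays, and for 18 both lay below, against 14.7% and 17.5% of all features. Most members were bright, so the closer background is the 11350 features above 22.98 units. Among the 98 member features of that kind, 21 (21.4%) were separate and higher, against a background of 17.8%. In that set 16 (16.3%) were separate and lower, against 18.0%, and 7 (7.14%) had an unadjusted p under 0.05, against 4.26%. Without the empty-vector array, the luciferase value lay below both hairpins for 38 of the 98 features (38.8%) and above both for 25 (25.5%), against 35.8% and 31.2% of bright features. In a comparison of 2 arrays with 2, an exact permutation test of 1 gene cannot go below p = 0.333.

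**Figure D1:**
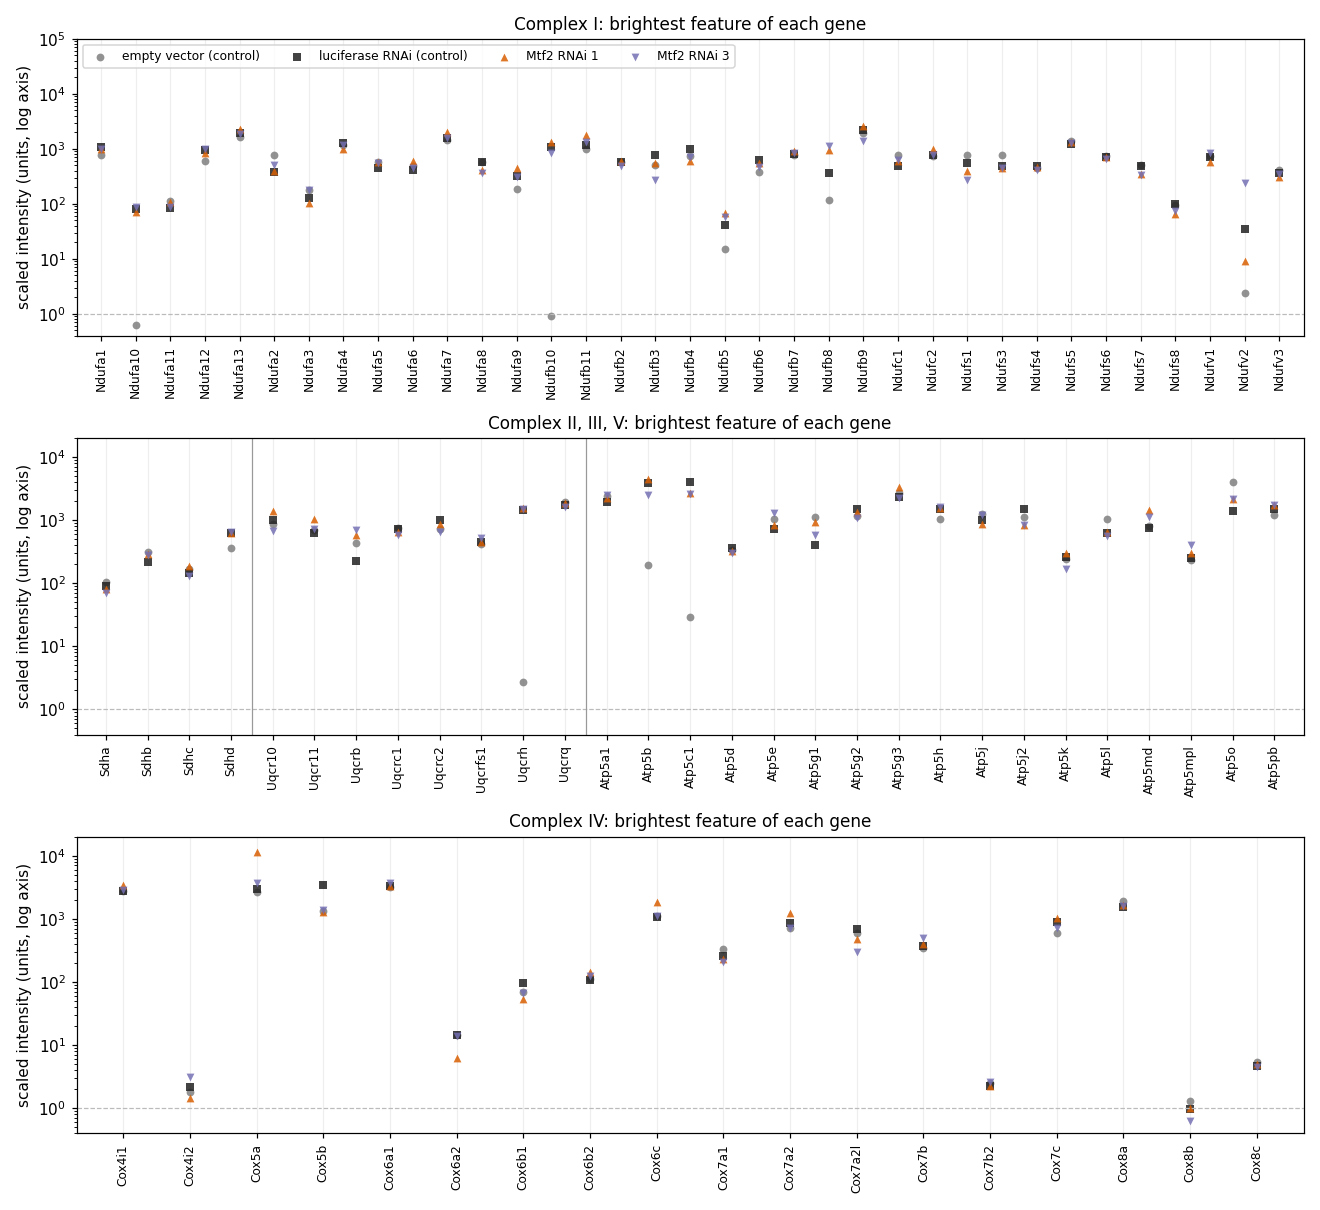
Scaled intensity (units, log axis) of the brightest feature of each of the 82 genes on the 4 arrays, in alphabetical order within each complex; the dashed line is the floor of 1 unit. Most genes have 4 overlapping points, and the empty-vector points of Ndufa10, Ndufb10, Ndufv2, Uqcrh, Atp5b and Atp5c1 lie far below the others. Heights of different genes cannot be compared.

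The plot of all 82 genes by array shows how close most members stayed across the plasmids. A few features had 1 array far from the rest, and their share could be read against the bright features. The empty-vector array lay at least 1 log2 unit from the median of the other arrays for 8 of 98 member features (8.16%), against 7.10% of bright features. The luciferase array did so for 5 (5.10%, against 1.84%), hairpin 1 for 4 (4.08%, against 2.34%) and hairpin 3 for 4 (4.08%, against 2.54%). Ndufb8 and Ndufv2, which vary across all arrays, were counted on each of the 4 arrays.

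The large positive differences lay along 1 edge of the array. Of the 22 member features in columns 70 to 85 of the 85 columns, 9 (40.9%) differed by at least 1 log2 unit between the arms, against 1 of the other 88 (1.14%). Among bright features the shares were 20.6% of 2036 and 1.63% of 9314. The empty-vector array read at least 1 log2 unit low for 8 of the 22 edge features and for none of the other 88, and among bright features for 25.3% and 1.21%. Whether the position on the array produced these differences was not tested. The edge features of complex I are those of Ndufa3, Ndufa4, Ndufa5, Ndufa9, Ndufa10, Ndufb5, Ndufb8, Ndufb10, Ndufs1, Ndufs8, Ndufv2 and the dimmest of Ndufa12. The others are those of Sdhb, Uqcrh, Cox7a1, Cox8c, Atp5b, Atp5c1, Atp5g2, Atp5j, Atp5pb and the dimmer of Uqcrc1. Apart from Ndufa12 and Uqcrc1, they are the brightest of their gene. Outside those columns, the 62 genes with a brightest feature there gave 33 higher and 29 lower, with a median of 0.017. They had 12 separate in each direction, against 17.8% higher and 18.0% lower among all bright features. Of these 62 genes, 58 were bright.

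**Figure D2:**
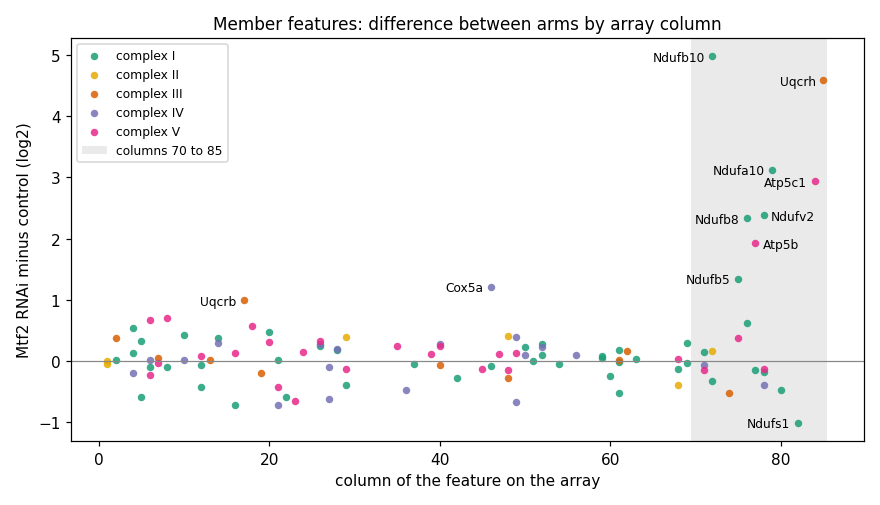
Difference between the arms (Mtf2 RNAi minus control, log2) of the 110 member features tested, against the column of the feature on the array; colours mark the complexes and the shaded band columns 70 to 85. Outside the band only Cox5a passes 1 log2 unit, while inside it 8 features lie above 1 and Ndufs1 lies just past -1.

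Complex I, the NADH dehydrogenase, divided evenly: 17 of its 35 genes were higher and 18 lower in the Mtf2 RNAi arm. The median was -0.0057 log2 units, and 5 and 8 genes were separate, against 17.8% and 18.0% of bright features. The genes of complex I were first ordered by role. The nuclear genes of the catalytic core, most of which carry the flavin or iron-sulfur clusters on the path from NADH to coenzyme Q, were represented by 6 genes: Ndufs1, Ndufs3, Ndufs7, Ndufs8, Ndufv1 and Ndufv2. This grouping was made after the values were seen and gets no test. Of the 6, 5 were lower and 4 were separate and lower, with a median of -0.44, and 18.0% of bright features were separate and lower.

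Ndufs1, the largest iron-sulfur subunit, read 782 units with the empty vector, 561 with luciferase RNAi, 401 with hairpin 1 and 270.4 with hairpin 3. Both controls lay above both hairpins and the arms did not overlap, and the difference was -1.01 (SE 0.32, limma unadjusted p = 0.025, adjusted p = 0.868). Its feature lies in column 82, at the edge, where the empty-vector value was here the highest of the 4, and without the empty-vector array the difference was -0.77. Ndufs7, which holds the last iron-sulfur cluster before coenzyme Q, read 499.8 units with the empty vector, 493 with luciferase RNAi, 356 with hairpin 1 and 338 with hairpin 3. The values of the control arm were nearly equal, the hairpins lay below them, and the difference was -0.52 (SE 0.22). Ndufs8, another iron-sulfur subunit, read 94.9 units with the empty vector, 98.4 with luciferase RNAi, 64.7 with hairpin 1 and 75.5 with hairpin 3. Again both hairpins were lower (-0.47, SE 0.22), and without the empty vector the differences were -0.51 for Ndufs7 and -0.49 for Ndufs8. The Ndufs8 feature lies in edge column 80. Of the 6 core genes, 3 lie in the edge columns: Ndufs1, Ndufs8 and Ndufv2.

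The other core genes were chosen for mention after their values were seen. Ndufs3, a core subunit of the module that binds coenzyme Q, with no iron-sulfur cluster of its own, read 765 units with the empty vector, 485 with luciferase RNAi, 453 with hairpin 1 and 457 with hairpin 3. Here 1 control array stood high, and the difference of -0.42 (SE 0.30) was -0.093 without it. Ndufv1, the flavin-binding subunit where NADH is oxidised, read 743 units with the empty vector, 697 with luciferase RNAi, 574 with hairpin 1 and 839.7 with hairpin 3, and the arms overlapped (-0.052, SE 0.29). Ndufv2, its iron-sulfur partner, read 2.36 units with the empty vector, 34.5 with luciferase RNAi, 9.26 with hairpin 1 and 239 with hairpin 3. This feature lies at a defective position and spanned the widest range on the hairpin arrays of any bright member (4.69 log2 units from hairpin 1 to hairpin 3), and the second Ndufv2 feature read between 0.745 and 2.15 units. Without the empty-vector array, the luciferase value lay above both hairpins for 4 of the 6 core genes and below both for 0, against 31.2% and 35.8% of bright features. These 4 are the genes counted above as separate and lower. For them the result follows from that count, so it is no further check.

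Ndufb8, an accessory subunit of the membrane arm whose protein is widely used as a marker of assembled complex I, had the smallest p of all members. It read 115 units with the empty vector, 363 with luciferase RNAi, 951 with hairpin 1 and 1109.7 with hairpin 3. Each hairpin lay above each control, and the controls themselves were 1.66 log2 units apart. The difference was 2.33 (SE 0.57, limma unadjusted p = 0.0088, adjusted p = 0.868). Its only feature lies in column 76, among the edge columns, though its position was not called defective. The difference was 1.5 without the empty-vector array and 3.16 without the luciferase array. Ndufb5, also of the membrane arm, read 15 units with the empty vector, 41.6 with luciferase RNAi, 69.2 with hairpin 1 and 58 with hairpin 3. The empty-vector value was lowest, and the arms did not overlap. Its difference of 1.34 (SE 0.52, unadjusted p by limma 0.047) was 0.61 without the empty-vector array, and it too lies at the edge, in column 75.

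Other accessory subunits showed smaller differences. Ndufb11, an X-linked subunit of the membrane arm, read 1001 units with the empty vector, 1174 with luciferase RNAi, 1818 with hairpin 1 and 1359 with hairpin 3, with both hairpins above both controls (0.54, SE 0.29). Ndufa8, on the intermembrane-space side, read 581 units with the empty vector, 569 with luciferase RNAi, 406 with hairpin 1 and 359 with hairpin 3 in its brighter feature. Both hairpins were lower there (-0.59, SE 0.23, unadjusted p by limma 0.046), but the second Ndufa8 feature read 299, 257, 601 and 230.1 units in the same order, with hairpin 1 high, and differed by 0.42. Ndufa9, at the junction of the peripheral and membrane arms, read 188 units with the empty vector, 316 with luciferase RNAi, 447 with hairpin 1 and 309.7 with hairpin 3. The luciferase value lay between the hairpins, so the arms overlapped, and the difference was 0.61 (SE 0.36). The empty-vector value was lowest, and without that array the difference was 0.24. This feature lies in column 76, at the edge, and was called defective only when the neighbours above the median level were used.

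The brightest features of complex I were those of Ndufb9, an accessory subunit of the membrane arm, and Ndufa13, known also as the interferon and retinoid response gene GRIM-19. Ndufb9 read 1901 units with the empty vector, 2235 with luciferase RNAi, 2615 with hairpin 1 and 1410.1 with hairpin 3, and the hairpins lay on either side of the controls (-0.10, SE 0.39). Ndufa13 read 1622 units with the empty vector, 1901 with luciferase RNAi, 2317 with hairpin 1 and 1851 with hairpin 3, with overlapping arms (0.24, SE 0.29). Ndufa4, named as a complex I gene but now known to encode a subunit of complex IV, read 1175 units with the empty vector, 1295 with luciferase RNAi, 1013 with hairpin 1 and 1159 with hairpin 3. Its hairpin values lay just below the controls (-0.19, SE 0.26). The feature of Ndufa4 lies in edge column 78 and was called defective only when the neighbours above the median level were used. The annotation named no feature for its paralogue Ndufa4l2.

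Another pair of accessory genes, chosen after their values were seen, shows the empty-vector array departing alone. Ndufb10 read 0.93 units with the empty vector, 1101 with luciferase RNAi, 1305 with hairpin 1 and 842 with hairpin 3, and Ndufa10 read 0.627 units with the empty vector, 81 with luciferase RNAi, 70.8 with hairpin 1 and 87.3 with hairpin 3. For both the other 3 arrays were close together, and the empty-vector value lay under the floor, so that the differences of 4.98 (SE 3.17) and 3.13 (SE 2.00) depend on the floor. Without that array they were -0.071 and -0.043. Ndufa10 lies at a defective position, while Ndufb10 was called defective only when the neighbours above the median level were used.

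Complex II, the succinate dehydrogenase that also serves the citrate cycle, has 4 genes, all nuclear, and none differed by over 0.5 log2 units. Sdha, the flavoprotein that oxidises succinate, read 103 units with the empty vector, 90.6 with luciferase RNAi, 79.5 with hairpin 1 and 68.8 with hairpin 3 in its brightest feature. Both hairpins were lower there (-0.39, SE 0.23), whereas both were higher in its second feature (0.39) and the faintest feature, near the floor, differed by -0.047. Sdhb, the iron-sulfur subunit, read 307 units with the empty vector, 213 with luciferase RNAi, 294 with hairpin 1 and 278 with hairpin 3, with the luciferase value lowest (0.16, SE 0.27). Sdhc, a membrane anchor, read 167 units with the empty vector, 144 with luciferase RNAi, 184 with hairpin 1 and 131 with hairpin 3, and its arm means were equal to within 0.01 log2 units (SE 0.26). Sdhd, the other anchor and the gene with NRF1 and ETS motifs shown above, read 359 units with the empty vector, 625 with luciferase RNAi, 625 with hairpin 1 and 638 with hairpin 3. Here 3 arrays were nearly equal and the empty vector alone was low, so the difference was 0.41 (SE 0.33) with that array and 0.014 without it. Over the complex 3 genes were higher and 1 lower, and the median was 0.079. The separate genes numbered 0 and 1, against 17.8% and 18.0% of bright features.

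Complex III, the cytochrome bc1 complex, had 5 genes higher and 3 lower, with a median of 0.10. Of these, 3 and 1 were separate, against 17.8% and 18.0% of bright features. Uqcrb, an accessory subunit at the coenzyme Q site, read 436 units with the empty vector, 227 with luciferase RNAi, 574 with hairpin 1 and 688 with hairpin 3. Both hairpins lay above both controls, and the luciferase value was the lowest. The difference was 1.00 (SE 0.38, limma unadjusted p = 0.044, adjusted p = 0.868), and it was 0.53 without the luciferase array and 1.47 without the empty vector. This feature lies in column 17, away from the edge. Uqcr11, the smallest subunit, read 688 units with the empty vector, 625 with luciferase RNAi, 1030.3 with hairpin 1 and 710.0 with hairpin 3, with hairpin 1 high and the arms apart (0.38, SE 0.29).

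Uqcrfs1 and Uqcrc1 stand for the catalytic and core parts. Uqcrfs1, the Rieske iron-sulfur protein that hands electrons to cytochrome c1, read 408 units with the empty vector, 446 with luciferase RNAi, 443 with hairpin 1 and 515 with hairpin 3, and luciferase RNAi lay just above hairpin 1 (0.16, SE 0.23). Uqcrc1, a core protein, read 755 units with the empty vector, 726 with luciferase RNAi, 637 with hairpin 1 and 580.1 with hairpin 3, with both hairpins lower (-0.28, SE 0.23). Its second feature, in edge column 74, gave -0.52 (SE 0.31), also with both hairpins below both controls. Uqcrq, one of the brightest members of the complex, read 1916 units with the empty vector, 1711 with luciferase RNAi, 1849 with hairpin 1 and 1624 with hairpin 3 and overlapped (-0.063, SE 0.27).

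Uqcrh, the acidic hinge protein at the cytochrome c1 site, read 2.72 units with the empty vector, 1454 with luciferase RNAi, 1528 with hairpin 1 and 1502 with hairpin 3 in its brightest feature, at a defective position in the last column. Only the empty vector departed, and the difference of 4.59 (SE 2.84) was 0.06 without it. The second Uqcrh feature, in column 13, read 1002, 615, 883 and 717 units in the same order, with overlapping arms, and differed by 0.020.

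Complex IV, cytochrome c oxidase, had 10 genes higher and 8 lower, with a median of 0.055. It had 4 separate in each direction, against 17.8% higher and 18.0% lower among bright features. Over all features the shares were 14.7% and 17.5%. Of the 18 genes, 13 were bright, and the dim ones include Cox6a2, which was separate and lower. None of the features of complex IV had an unadjusted p under 0.05, and none lay at a defective position. Its core subunits come from mitochondrial DNA, and the nuclear subunits surround them. Cox5a, on the matrix side, read 2630.0 units with the empty vector, 3008 with luciferase RNAi, 11598 with hairpin 1 and 3682 with hairpin 3. Hairpin 1 alone was high, with the highest reading of any feature on the 4 arrays. Both hairpins lay above both controls, and the difference of 1.22 (SE 0.60) was 0.39 without hairpin 1. This was the only member feature outside the edge columns to pass 1 log2 unit. Cox5b, the zinc-binding subunit, read 1342 units with the empty vector, 3401 with luciferase RNAi, 1288 with hairpin 1 and 1388 with hairpin 3, with luciferase RNAi alone high and the other 3 arrays close together (-0.68, SE 0.49).

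Cox7a2l, known as SCAFI for its role in joining complexes III and IV in supercomplexes, had the smallest p of complex IV. It read 586 units with the empty vector, 683 with luciferase RNAi, 482 with hairpin 1 and 303 with hairpin 3. Both hairpins lay below both controls, hairpin 3 the lower, and the difference was -0.73 (SE 0.31, unadjusted p by limma 0.066). Cox6b1, on the intermembrane-space side, read 70.6 units with the empty vector, 97.4 with luciferase RNAi, 53.4 with hairpin 1 and 67 with hairpin 3, and the hairpins were lower by a narrow gap (-0.47, SE 0.28).

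Several nuclear subunits of complex IV have a widely expressed isoform and 1 restricted to a tissue or condition. Of the widely expressed ones, Cox4i1 read 2736 units with the empty vector, 2716 with luciferase RNAi, 3376 with hairpin 1 and 2857 with hairpin 3, with both hairpins above both controls by a narrow margin (0.19, SE 0.29), a difference that became -0.019 when each value was corrected by its neighbours on the array. Cox6a1 read 3159 units with the empty vector, 3336 with luciferase RNAi, 3279 with hairpin 1 and 3691 with hairpin 3 (0.10), and Cox8a read 1909 units with the empty vector, 1556 with luciferase RNAi, 1646 with hairpin 1 and 1590.2 with hairpin 3 (-0.091), both with overlapping arms. Cox7b read 347 units with the empty vector, 376 with luciferase RNAi, 399 with hairpin 1 and 489 with hairpin 3, with both hairpins above both controls and hairpin 3 highest (0.29, SE 0.24). Cox7a2 read 712 units with the empty vector, 851 with luciferase RNAi, 1241 with hairpin 1 and 711 with hairpin 3, with hairpin 1 alone high (0.27, SE 0.35).

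The restricted isoforms were mostly near the floor. Cox4i2, the isoform of lung and low oxygen, read 1.83, 2.19, 1.46 and 3.12 units on the empty-vector, luciferase, hairpin 1 and hairpin 3 arrays. In the same order Cox7b2, of testis, read 2.53, 2.26, 2.24 and 2.61 units, Cox8b, of heart and muscle, read 1.31, 0.971, 0.994 and 0.626 units, and Cox8c, of testis, read 5.38, 4.59, 5 and 4.53 units. Each stayed within 6 units on every array, and all 4 had overlapping arms. Cox6a2, of heart and muscle, read 14.2, 14.3, 6.27 and 13.8 units, with hairpin 1 alone far lower (-0.62, SE 0.46).

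The remaining pair of restricted isoforms had readings above 22.98 units. Cox6b2, of testis, read 113, 109, 143 and 126 units in the same order, and both hairpins lay above both controls (0.28, SE 0.21). Cox7a1, of heart and muscle, read 329, 255, 229 and 211 units, and both hairpins lay below both controls (-0.40, SE 0.24). The Cox7a1 feature lies in edge column 78. Of the 6 markers of muscle, 4 read under 10 units on every array, and Actc1 and Myh7 read higher. Their summed level was 50.1, 49.1, 35.7 and 65.9 units in the same order, and its part in the Cox7a1 value was not tested. Promoter windows were matched for 4 of the 7 restricted isoforms. They held 10 CpG dinucleotides for Cox6b2, 7 for Cox7a1, 10 for Cox7b2 and 2 for Cox8b, and those of the widely expressed Cox6b1, Cox7a2, Cox7b and Cox8a held 17, 20, 5 and 19.

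Complex V had 10 genes higher and 7 lower, with a median of 0.13. Of these, 4 and 2 were separate, against 17.8% and 18.0% of bright features. Atp5md, known as DAPIT, a small membrane subunit that joins ATP synthase dimers, read 804 units with the empty vector, 745 with luciferase RNAi, 1411 with hairpin 1 and 1113 with hairpin 3. Both hairpins lay above both controls, and the difference was 0.69 (SE 0.26, limma unadjusted p = 0.046, adjusted p = 0.868). It was 0.75 without the empty-vector array, and the feature lies in column 8. Atp5mpl, another small membrane subunit, read 229.5 units with the empty vector, 247 with luciferase RNAi, 304 with hairpin 1 and 408 with hairpin 3, again with both hairpins higher (0.56, SE 0.25). Atp5j2, subunit f of the membrane part, read 1115 units with the empty vector, 1509 with luciferase RNAi, 817 with hairpin 1 and 826 with hairpin 3. Both its hairpin values were lower and nearly equal (-0.66, SE 0.28).

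Atp5pb, subunit b of the peripheral stalk, read 1193 units with the empty vector, 1479.6 with luciferase RNAi, 1703 with hairpin 1 and 1741 with hairpin 3 in its brightest feature, with both hairpins above both controls (0.37, SE 0.27). That feature lies in edge column 75. The second Atp5pb feature gave 0.31 (SE 0.24) and was also separate, while the other features of the gene read under 7 units and gave -0.22 and 0.24. Atp5g3, 1 of 3 genes for the same mature subunit of the c-ring, read 2642 units with the empty vector, 2291 with luciferase RNAi, 3297 with hairpin 1 and 2254 with hairpin 3, with overlapping arms (0.15, SE 0.33). Its paralogues Atp5g1 and Atp5g2, chosen after their values were seen, gave 0.13 (SE 0.55) and -0.12 (SE 0.29). Atp5g1 read 1114, 400.1, 912 and 584 units on the empty-vector, luciferase, hairpin 1 and hairpin 3 arrays, and the controls alone spanned its whole range.

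The catalytic F1 part showed the empty-vector edge again. Atp5b, the catalytic beta subunit, read 193 units with the empty vector, 3835 with luciferase RNAi, 4367 with hairpin 1 and 2439.6 with hairpin 3 in its brightest feature, at a defective position in column 77. Only the empty vector was low, and the difference of 1.93 (SE 1.40) turned to -0.23 without it, while the other Atp5b features gave 0.11 and 0.12. Atp5c1, the rotating gamma subunit, was chosen after its values were seen and read 28.7 units with the empty vector, 4027 with luciferase RNAi, 2627 with hairpin 1 and 2578 with hairpin 3, at a defective position in column 84. Its difference of 2.94 (SE 2.24) turned to -0.63 without the empty vector. Atp5a1, the alpha subunit, gave 0.13 (SE 0.30) in its brightest feature and -0.028 in another. Its faintest feature, also chosen after its values were seen, read 121 units with the empty vector, 136 with luciferase RNAi, 220.3 with hairpin 1 and 187 with hairpin 3, with both hairpins higher (0.66, SE 0.22, unadjusted p by limma 0.031).

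**Figure D3:**
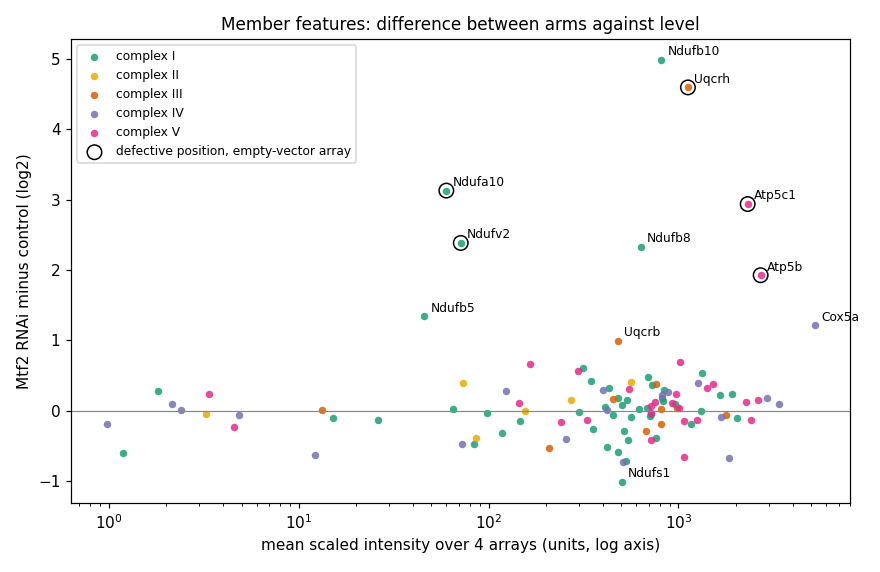
Difference between the arms (Mtf2 RNAi minus control, log2) of the 110 member features tested, against mean scaled intensity over the 4 arrays (units, log axis); colours mark the complexes and open circles the 5 defective positions on the empty-vector array. Of the 10 features past 1 log2 unit, 9 are higher in the Mtf2 RNAi arm and 5 of those are circled.

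The plot of difference against level shows that large differences were not confined to dim features: Cox5a, Atp5b and Atp5c1 were among the brightest members. At the 77 genes whose brightest feature lies at a sound position, 40 were higher and 37 lower, and the median was 0.015. Among them 15 and 16 were separate, against 17.8% and 18.0% of all bright features. Of these 77 genes, 72 were bright.

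The arrays of each arm were also compared with each other. Plasmid and array cannot be told apart here, since each plasmid has 1 array. The controls, luciferase RNAi against the empty vector, differed by at least 1 log2 unit for 12 of 98 bright member features (12.2%), against 8.19% of bright features. Of these 12, 8 lie in the edge columns and are the ones that the empty vector read low, and the other 4 are Ndufa2, Cox5b, Atp5g1 and Atp5o. The hairpins differed that far for 7 features (7.14%, against 4.59%): Ndufv2, Cox5a, Ndufb3, Uqcr10 and dimmer features of Ndufa8, Ndufa12 and Atp5b. Ndufb3, a membrane-arm subunit, read 509 units with the empty vector, 779.8 with luciferase RNAi, 547 with hairpin 1 and 270.1 with hairpin 3, and hairpin 3 alone was low. Atp5o, the subunit OSCP that ties the peripheral stalk to F1, read 4024 units with the empty vector, 1361 with luciferase RNAi, 2121 with hairpin 1 and 2177 with hairpin 3, and the empty vector alone was high. These genes were chosen by that difference, and there was no test.

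**Figure D4:**
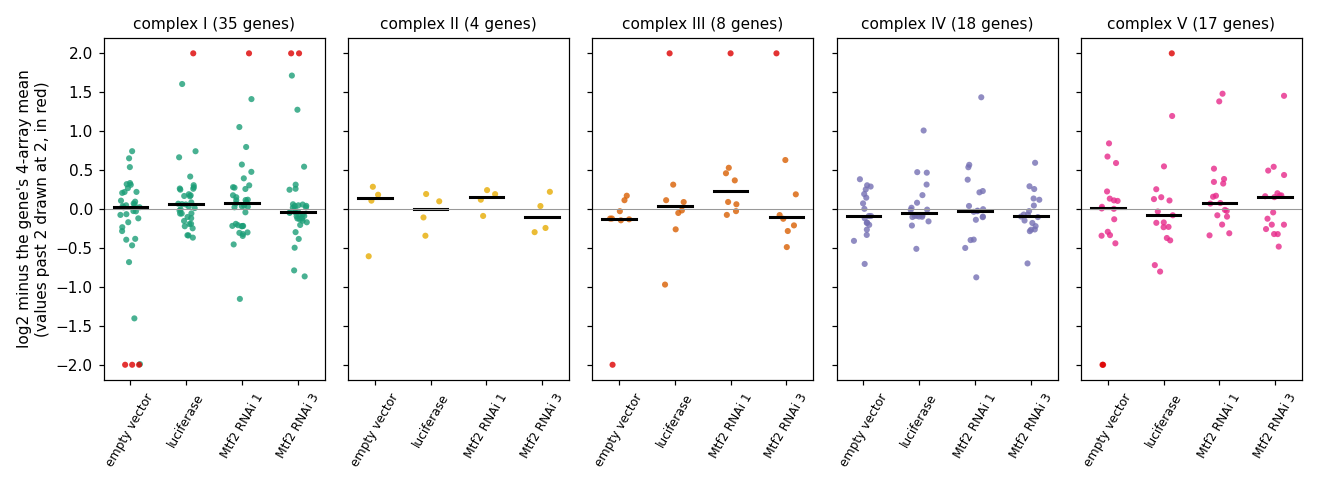
Log2 level of each gene minus its own mean over the 4 arrays, by complex and array, 1 point for each gene (brightest feature); black bars are medians, and values past 2 are drawn at 2 in red. The medians of all complexes and arrays lie within 0.23 log2 units of 0, and the red points below 0 are empty-vector values.

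The median deviation was taken over the genes of each array. Over the 82 genes the medians were -0.011 for the empty vector, -0.0058 for luciferase RNAi, 0.071 for hairpin 1 and -0.046 for hairpin 3, so the hairpins lay on either side of the controls. For complex I they were 0.023, 0.059, 0.072 and -0.041 in the same order, and for complex II 0.15, -0.0044, 0.16 and -0.10. For complex III they were -0.12, 0.036, 0.23 and -0.10, and for complex IV -0.089, -0.047, -0.024 and -0.084. For complex V they were 0.0075, -0.080, 0.077 and 0.15. The plot of deviations by array shows these medians against the genes.

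Genes with more than 1 tested feature gave a check within the array. Of 19 such genes, the features of 8 shared their sign and those of 11 did not, and for 9 they were over 0.5 log2 units apart. Some of the 11 differed in sign only near 0, within the SE, as Ndufa11 (-0.030 and 0.020) and Uqcrq (-0.063 and 0.010). Others, as Ndufc1, Ndufv2, Sdha and Atp5pb, include a feature near the floor. The widest disagreements were those of Uqcrh, Ndufv2 and Atp5b, whose brightest feature lies at a defective position. Besides Uqcrh and Atp5b, Uqcrc1, Ndufv3, Ndufa7, Ndufa1, Cox7a2 and Atp5h had all features on 1 side.

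The members were also divided by their promoter motifs, as a description. The 20 genes with an NRF1 motif had a median difference of -0.018, with 9 higher and 11 lower, and the 48 without one had 0.11, with 29 and 19. The 17 genes with an ETS motif had a median of 0.10, with 10 higher and 7 lower, and the 51 without one had 0.041, with 28 and 23. The 6 genes with both motifs had a median of 0.21, with 4 higher and 2 lower.

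Other genes of the pathway were read from lists written with earlier results of these data known, and no gene of any list was called by limma. The counts of separate genes in these lists are read against all features, of which 14.7% were separate and higher and 17.5% separate and lower. Of the genes named from these lists, Nubpl, Ttc19, Cox15, Coa6, Atpaf1, Coq3 and Suclg1 have their feature in the edge columns. For the complex I assembly factors, 4 of 14 were higher and 10 lower, 1 and 3 of them separate, with a median of -0.17. Nubpl, which delivers iron-sulfur clusters to complex I, read 117 units with the empty vector, 133 with luciferase RNAi, 76.9 with hairpin 1 and 83.5 with hairpin 3, and both hairpins were lower (-0.64, SE 0.22). Foxred1, another assembly factor, read 133 units with the empty vector, 169 with luciferase RNAi, 90.9 with hairpin 1 and 1.36 with hairpin 3, and hairpin 3 alone was near the floor (-3.76, SE 1.91). Leaving out 1 array at a time gave -6.79 to -0.73 for Foxred1, the smallest being without hairpin 3. The complex II factors had 2 of 4 higher (0 separate, against 1 separate and lower, median 0.010), with Sdhaf1 at -0.53 (SE 0.23) and Sdhaf3 at 0.31 (SE 0.41). The complex III factors had 4 of 5 higher (1 separate each way, median 0.10), with Uqcc2 at -0.23 (SE 0.23) and Ttc19 at 0.26 (SE 0.27). With 1 array left out, Sdhaf3 ranged from -0.20 to 0.81, Uqcc2 from -0.39 to -0.073 and Ttc19 from 0.11 to 0.42.

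Complex IV assembly factors had 7 of 22 higher and 15 lower, 3 and 9 of them separate (against 14.7% and 17.5% of all features), with a median of -0.20. Cox15, which makes heme A, read 47 units with the empty vector, 44.9 with luciferase RNAi, 23.5 with hairpin 1 and 28.3 with hairpin 3, and both hairpins were lower (-0.83, SE 0.24). Coa6, which helps deliver copper, read 52.4 units with the empty vector, 52.9 with luciferase RNAi, 85.4 with hairpin 1 and 85.4 with hairpin 3, and both hairpins were higher (0.70, SE 0.21). Both lie in the edge columns (72 and 71), where their empty-vector values were close to the luciferase values. The complex V factors had 2 of 5 higher (1 separate each way, median -0.091), with the inhibitor Atpif1 at 0.50 (SE 0.30) and the F1 chaperone Atpaf1 at -0.41 (SE 0.26). With 1 array left out, Atpif1 ranged from 0.26 to 0.73 and Atpaf1 from -0.64 to -0.19.

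Cytochrome c and the coenzyme Q genes had 7 of 12 higher and 5 lower, 0 and 3 separate, with a median of 0.033. Coq4 gave -0.70 (SE 0.33), and Coq3, under 2 units on every array, gave -0.52 (SE 0.21). The value of Coq4 was -0.33 without the empty vector and -1.07 without luciferase RNAi. Regulators of mitochondrial gene expression had 11 of 24 higher and 13 lower, 4 and 7 separate, with a median of -0.14. Nrf1, the factor whose motif is counted above, read 82.2 units with the empty vector, 65.7 with luciferase RNAi, 53.7 with hairpin 1 and 47.3 with hairpin 3, with both hairpins lower (-0.54, SE 0.24), and Tfb1m, which modifies mitochondrial ribosomal RNA, gave -0.62 (SE 0.29, and -0.34 without the empty vector). The citrate cycle and pyruvate dehydrogenase had 7 of 16 higher and 9 lower, 2 and 4 separate, with a median of -0.069. Pdha1, the X-linked catalytic subunit of pyruvate dehydrogenase, read 222 units with the empty vector, 261 with luciferase RNAi, 135 with hairpin 1 and 134 with hairpin 3. The values differed little within each arm, and the difference was -0.84 (SE 0.22, limma unadjusted p = 0.012, adjusted p = 0.868). Suclg1, of succinyl-CoA ligase, gave 0.48 (SE 0.26), with a range of 0.22 to 0.73 when 1 array was left out.

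Subunits encoded by mitochondrial DNA were looked for by symbols that start with mt-, and the annotation used 0 such symbols. By chromosome, COX2 and ND4L were found on mitochondrial DNA after the values were seen. COX2, a catalytic subunit of complex IV, read 7159.7 units with the empty vector, 3741 with luciferase RNAi, 3654 with hairpin 1 and 2707 with hairpin 3. The empty-vector value was high, and the hairpins lay below both controls (-0.72, SE 0.44). ND4L, a membrane subunit of complex I, read 1571 units with the empty vector, 1710.2 with luciferase RNAi, 2122 with hairpin 1 and 2040.5 with hairpin 3, with both hairpins above both controls (0.34, SE 0.27). Neither was called (limma adjusted p = 0.868).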

How the data were processed

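Expression was measured on 4 one-colour (Cy3) arrays of E14 cells, 2 for each arm, grouped by plasmid as the labels give it. The deposited values are intensity on a linear scale for each feature, as the authors gave them, from -1.8 to 11669.4. Values under 0 show a subtracted background; how they were scanned, extracted and normalized is not given in the sources used here. Per the labels' protocols, Trizol RNA was labelled with Agilent's Quick-Amp kit. No detection calls were used, and the number of arrays limits the precision.

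The arrays were scaled to share their 75th percentile (22.98 units), and log2 was taken with a floor of 1 unit. The 10118 features at this floor on all arrays were left out, and 35102 of 45220 were tested with limma 3.58.1 (lmFit, eBayes with a trend) in R 4.3.3. P-values were adjusted by Benjamini-Hochberg, with a threshold of 0.05. The procedure was tested on simulated data with independent noise of the same size for every feature. Those data held no edge readings like those of the empty-vector array, so the test does not cover them. A gene is its brightest feature. Features were taken to lie on 532 rows of 85 columns, and positions count as defective if the tested neighbours in a 7 by 7 square deviate by a median of over 0.5 log2 units.

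Names came from the platform annotation of 2016: 33709 features are listed, 33653 with 1 symbol and 56 with several, which were left unnamed. All 113 member features matched the RefSeq gene table of GRCm38.p6, and 0 symbols changed. The named genes are the 4 Sdh genes, the 8 smallest p in complex I and the 5 smallest in complexes III, IV and V, the 2 brightest genes of each complex, Ndufb8, the restricted isoforms with their partners, Cox7a2l and the 2 smallest p of each other list. The members, lists and this rule were chosen with earlier results of these data known. Alternatives tried were other scalings, floors and filters, leaving out array regions or single arrays, a correction by neighbours, a fit without a trend and other ways to join features.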

Additional observations from a re-analysis of the deposited data

How the results depend on the processing

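Every alternative in the plan, and the 1 added later, left 0 member features called by limma. Over all features the count was 0 except with no filter on low values (36 calls, 0 of them members). Features with an unadjusted p under 0.05 numbered 410 to 4417 across all alternatives, against 1467, and 3 to 11 among the members, against 7. The median over the member genes ranged from -0.031 to 0.092, and 37 to 50 genes were higher. A gene's direction was compared only where its difference passed its SE: of 755 values for 43 named genes under the alternatives, 754 kept it or were not compared, and the exception was Atp5b, at -0.23 without control replicate 1 and up to 4.08 when the other arrays were left out.

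Medians of several lists moved with the processing. Some of the values lay outside the ranges that leaving out 1 array gave (below), and others lay within them. Scaling to a common median gave -0.067 for complex I, -0.0071 for complex IV, 0.067 for complex V and -0.15 for complex V assembly, and quantile normalization gave 0.018 for complex IV and -0.0013 for complex V. Complex IV was 0.10 with a floor of 4 units, 0.012 with 16 units added, 0.19 over features above 22.98 units, 0.097 outside columns 70 to 85 and 0.0058 with the correction by neighbours, which also gave 0.062 for complex I and 0.041 for complex V. Transcription regulators were -0.047 with a floor of 4 units, with no filter and above 22.98 units, -0.038 with 16 units added, -0.022 at sound positions by either rule (the one from bright neighbours was chosen after seeing the data) and by the median of features, -0.21 outside columns 70 to 85, -0.042 with the correction and -0.0091 by the mean of features. Complex V assembly was 0.058 outside columns 70 to 85, -6.26e-05 by the mean and 0.15 by the median of features, and the citrate cycle was 0.056 by the median. Members at least 1 log2 unit apart numbered 8 between controls at sound positions, against 13, and 3 between hairpins with the correction, against 9. The causes of these shifts were not tested.

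Leaving out 1 array at a time, the medians ranged from -0.030 to 0.046 for complex I, -0.11 to 0.22 for complex II, -0.021 to 0.30 for complex III, -0.043 to 0.067 for complex IV and -0.015 to 0.25 for complex V. For the assembly factors they ranged from -0.31 to 0.0033 (complex I), -0.30 to 0.32 (complex II), -0.025 to 0.23 (complex III), -0.27 to -0.12 (complex IV) and -0.19 to 0.24 (complex V). They were -0.17 to 0.088 for the carriers and coenzyme Q, -0.14 to -0.021 for the transcription regulators and -0.11 to 0.095 for the citrate cycle. A lone array in an arm was assumed to vary like the other arm. No paired analysis was possible because the plasmids of the arms have no pairing in the labels. Unreplicated plasmids, unknown normalization, edge readings of the empty-vector array and, for dim isoforms, signal near the floor limit all values here.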
